A study of Mus musculus with 8 samples.

Results

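The HIF subunits and the enzymes that sense oxygen for them were followed here as 10 genes of 55414 in the expression table. They were chosen by name, as the alpha subunit genes *Hif1a*, *Epas1* and *Hif3a*, the partner subunit genes *Arnt* and *Arnt2*, the ubiquitin ligase gene *Vhl*, the prolyl hydroxylase genes *Egln1*, *Egln2* and *Egln3*, and the asparaginyl hydroxylase gene *Hif1an*, and each was found in 1 row. RNA-seq was performed on B16F10 cells, a mouse melanoma line, in 4 groups of 2 libraries. WT cells and CypD KO cells, in which *Ppif* was targeted with CRISPR/Cas9 and puromycin-resistant clones were selected, were kept at 21% O2 for 24 h. Control cells, which carry the empty pcDNA vector, and cells labelled as stably overexpressing CypD (CypD OE), both selected with G418, were kept at 1% O2 for 24 h. The number of clones behind each line is not given in the sources used here, and no group combined WT cells with 1% O2 or the empty vector with 21% O2, so that oxygen and the vector line cannot be told apart.

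HIF is a transcription factor of an alpha and a beta subunit. With oxygen present, the prolyl hydroxylases (PHDs) modify the alpha subunit, the VHL protein then recognizes it for ubiquitination, and it is degraded by the proteasome, while the asparaginyl hydroxylase FIH, encoded by *Hif1an*, keeps the remaining protein from binding its coactivators. When the hydroxylases are inhibited, the alpha subunit accumulates, pairs with ARNT and activates genes with hypoxia response elements, among which are known members of its own control circuit. The RNA level of a subunit alone does not show the level of its protein, whose stability is the main point of control.

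*Ppif*, which encodes CypD, was at 50.7 and 49.99 TPM in WT, 10.4 and 12.1 TPM in CypD KO, 44.6 and 42.3 TPM in Control, and 50.3 and 49.3 TPM in the CypD OE-labelled libraries. TPM, the level of a transcript per length relative to all transcripts of its library, can be compared between genes. *Ppif* fell in CypD KO (log2 fold change -2.07, SE 0.073, limma adjusted p = 3.81e-06). The CypD OE-labelled libraries were only 1.15 times Control (limma adjusted p = 0.0794), a result whose side of the threshold changed when either CypD KO library was left out. The paper reports western blots as the check of CypD loss in the knockout clones and of CypD overexpression in the G418-selected clones. Protein is not part of the data used here. In these data, every direction drawn from the CypD OE-labelled libraries rests on the label. All 7 melanocyte lineage markers were expressed, and their sum differed between the groups without overlap, at 20446 to 20984 TPM in Control, 15665 to 15755 in WT, 13586 to 13758 in the CypD OE-labelled and 12433 to 12587 in the CypD KO libraries. Single markers did not all follow the order of that sum. *Tyr* was at 147 and 167 TPM in CypD KO and 37.4 and 41.3 TPM in WT. *Sox10* (269 and 274 TPM) and *Mlana* (2034 and 2067 TPM) were highest in the CypD OE-labelled libraries. Of the markers of other cells, *Postn* (6.42 to 34.8 TPM) and *Cd68* (1.13 to 23.3 TPM) were highest in CypD KO and lowest in CypD OE-labelled libraries. *Col1a2* (1.09 to 11.4 TPM) was highest in Control. The fibroblast gene *Pdgfra* (0.48 to 1.02 TPM) and the endothelial gene *Pecam1* (0.03 to 1.18 TPM) were low but above 0 in every library. The leukocyte gene *Ptprc* was at 0.02 TPM or less, *Dcn* at 0 and *Cdh5* at 0 in every library. The part of these markers in the results was not tested. In bulk RNA, fewer cells of a type and less RNA per cell cannot be told apart. From the steps between low values, 1 fragment on a transcript of 1 kb was worth 0.0818 to 0.0979 TPM, least in the CypD OE-labelled libraries. This is only an approximate guide to depth. The CypD KO libraries had the most genes above 0, at 19692 and 19456.

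Of the 10 genes, 8 reached the minimum for a test (1 TPM in 2 libraries), and *Hif3a* and *Arnt2* did not. In CypD KO against WT cells, 4 of the 8 rose (*Arnt*, *Vhl*, *Egln1* and *Egln3*) and 0 fell, where 48.4% of all 13526 genes tested differed, 30.1% upward and 18.4% downward. In CypD OE-labelled against Control cells at 1% O2, 4 fell (*Hif1a*, *Vhl*, *Egln1* and *Egln3*) and 2 rose (*Epas1* and *Egln2*), against 37.4% of all genes, 18.3% downward and 19.0% upward. In Control at 1% O2 against WT at 21% O2, 3 rose (*Vhl*, *Egln1* and *Egln3*) and 2 fell (*Epas1* and *Egln2*), against 24.2% of all genes, 12.1% in each direction. This comparison shares the WT libraries with the first and the Control libraries with the second. Differences were tested with limma on log2(TPM + 1), a scale that understates changes at low levels, and a call is an adjusted p under 0.05 over all genes tested. With 2 libraries a group, the calls rest on the spread pooled over groups and moderated over genes. The median log2 fold change of all genes was 0.09 in CypD KO against WT and -0.01 after rescaling, which moves small differences by as much. After rescaling, 3204 genes were higher and 3481 lower in CypD KO against WT, in place of 4066 and 2486, so that the excess of higher genes was turned round, and of the 8 members 3 rose and 1 fell (*Egln2*).

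**Figure D1:**
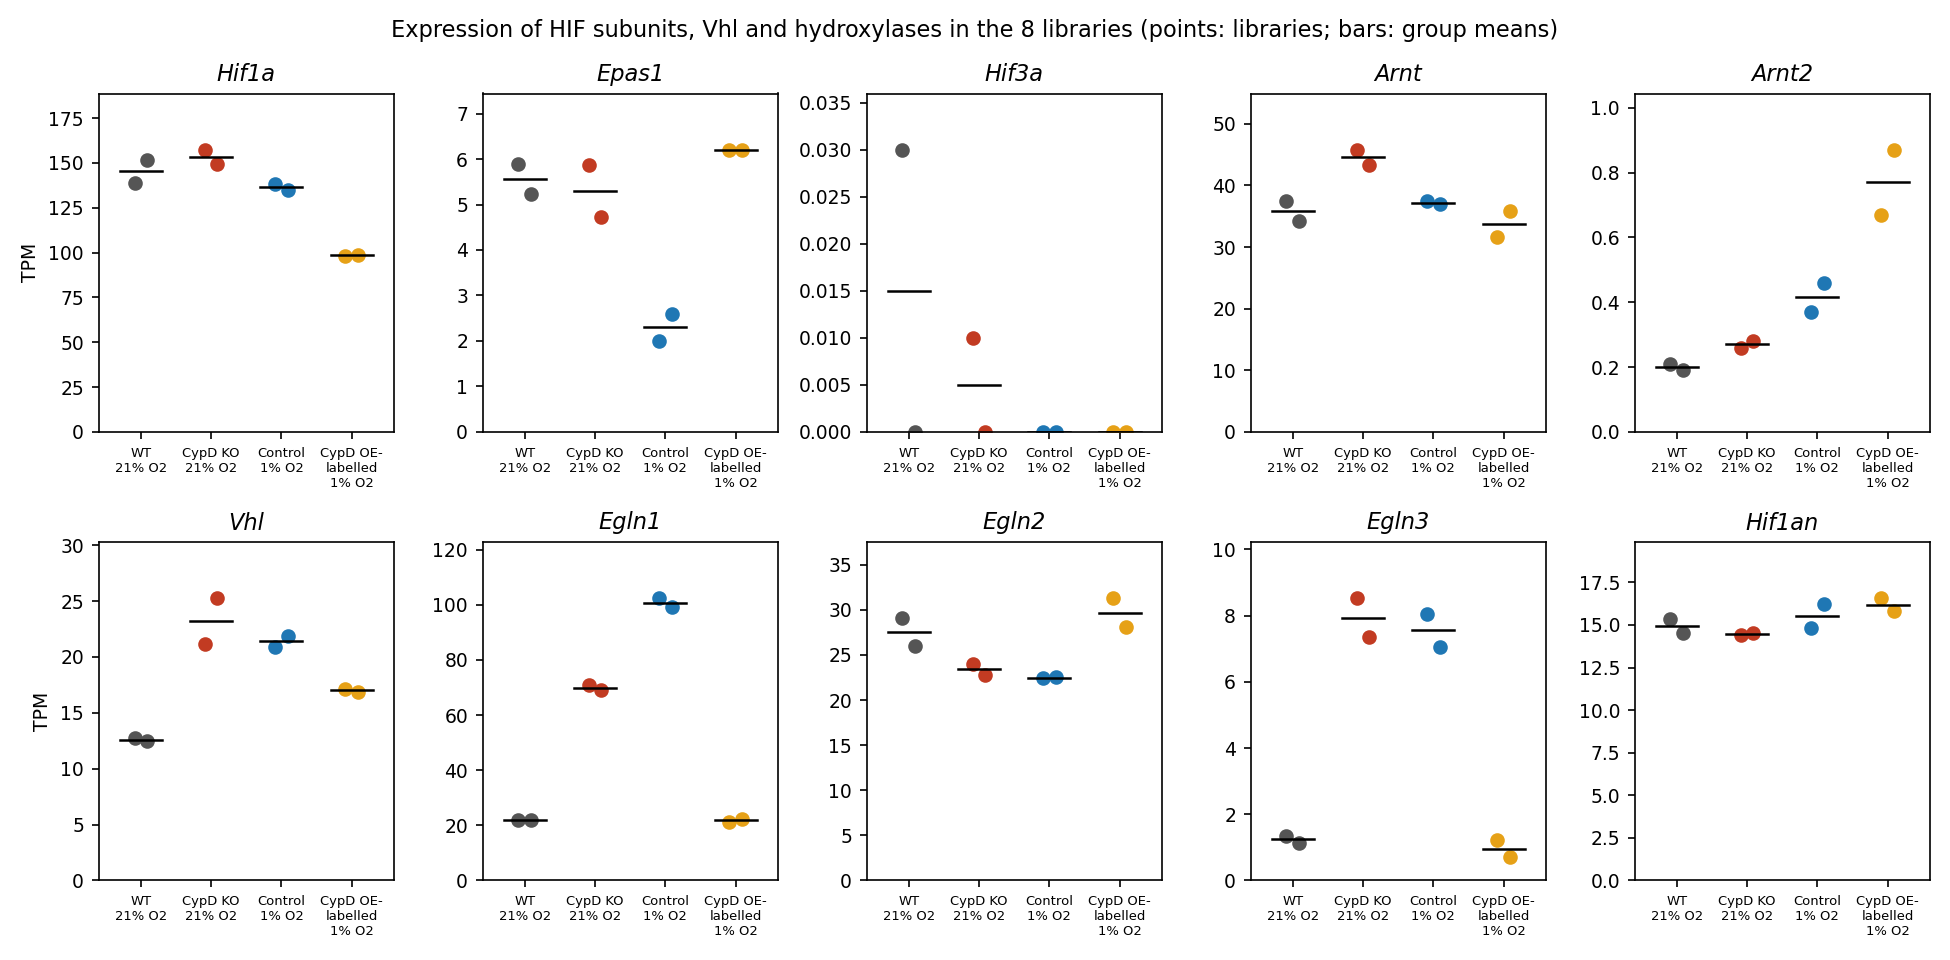
Level of each gene in TPM (vertical axis, from 0, its own scale per panel) in the 2 libraries (points) and the mean (bar) of each group. *Egln1* and *Egln3* are high in CypD KO and Control and low in WT and CypD OE-labelled libraries, *Epas1* is low in Control alone among the 4 groups, and *Hif1an* stays between 14.4 and 16.6 TPM.

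*Hif1a* (ENSMUSG00000021109; chromosome 12, 73948149 to 73996321 in GRCm39), which encodes HIF1α, was the most abundant of the 10 genes in every library. It was at 139 and 152 TPM in WT, 157 and 150 TPM in CypD KO, 138 and 135 TPM in Control, and 98.3 and 98.9 TPM in the CypD OE-labelled libraries. The WT and CypD KO libraries overlapped, Control lay just below WT, and both CypD OE-labelled libraries were below the other 6. In CypD KO against WT the log2 fold change was 0.08 (SE 0.050, 95% interval -0.04 to 0.20, limma adjusted p = 0.240), and in Control against WT it was -0.09 (-0.21 to 0.03, limma adjusted p = 0.262). *Hif1a* RNA fell in the CypD OE-labelled libraries to 72.2% of Control (log2 fold change -0.47, SE 0.050, limma adjusted p = 6.09e-04) and to 67.9% of WT (limma adjusted p = 5.80e-04), 2 comparisons that held under every alternative tried. The long noncoding RNA gene *Gm15283* runs antisense over the whole of *Hif1a*, at 0.13 to 0.79 TPM, and whether counting used strand is not given in the sources used here.

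*Epas1* (ENSMUSG00000024140; chromosome 17, 87061087 to 87140838), which encodes HIF2α, was far less abundant. Its levels were 5.90 and 5.22 TPM in WT, 5.87 and 4.73 TPM in CypD KO, 2.01 and 2.59 TPM in Control, and 6.19 and 6.20 TPM in the CypD OE-labelled libraries. Both Control libraries lay below all others, and WT and CypD KO overlapped. *Epas1* fell in Control to 41.4% of WT (log2 fold change -0.99, SE 0.14, limma adjusted p = 0.00386), and it was 2.69 times Control in the CypD OE-labelled libraries (log2 fold change 1.13, SE 0.14, limma adjusted p = 0.00127). In CypD KO against WT the log2 fold change was -0.06 (95% interval -0.41 to 0.28, limma adjusted p = 0.751). CypD KO cells at 21% O2 and Control cells at 1% O2 thus differed in this gene, with a log2 fold change of 0.93 between them (SE 0.14, limma adjusted p = 0.00216), and in *Epas1* every one of these 3 calls was kept under all 15 alternatives. The Control values rest on approximately 110 and 152 fragments.

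*Hif3a* (ENSMUSG00000004328; chromosome 7, 16764918 to 16796352), which encodes the third alpha subunit, was listed at 0.03 and 0 TPM in WT, at 0.01 and 0 TPM in CypD KO and at 0 in the other 4 libraries. The highest value corresponds to approximately 2.07 fragments, so no difference was detectable at this depth.

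Among the partner subunits, *Arnt* (ENSMUSG00000015522; chromosome 3, 95341365 to 95404551), which encodes the common beta subunit, was at 37.4 and 34.2 TPM in WT, 45.8 and 43.4 TPM in CypD KO, 37.4 and 36.9 TPM in Control, and 31.7 and 35.8 TPM in the CypD OE-labelled libraries. The CypD KO libraries were above the other 6, which overlapped in part. *Arnt* rose to 1.25 times WT in CypD KO (log2 fold change 0.31, SE 0.075, limma adjusted p = 0.0135). That call was lost after median-of-ratios rescaling (0.20, limma adjusted p = 0.0790), without CypD KO replicate 1 (0.27, limma adjusted p = 0.0767) and without WT replicate 2 (0.25, limma adjusted p = 0.0748). For CypD OE-labelled against Control the value was -0.14 (95% interval -0.32 to 0.04, limma adjusted p = 0.196). A processed pseudogene, *Gm42672*, lies within *Arnt* on the same strand at 1.17 to 6.82 TPM, and reads could have been split between them.

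*Arnt2* (ENSMUSG00000015709; chromosome 7, 83895483 to 84059740), a paralog of *Arnt* best known from neurons, was at 0.21 and 0.19 TPM in WT, 0.26 and 0.28 TPM in CypD KO, 0.37 and 0.46 TPM in Control, and 0.67 and 0.87 TPM in the CypD OE-labelled libraries. The groups did not overlap, and all levels stayed below 1 TPM, at approximately 12.4 to 67.7 fragments a library. Without the minimum on TPM, over 24706 genes, its log2 fold change in CypD OE-labelled against Control was 0.32 (SE 0.081, limma adjusted p = 0.0463) and against WT 0.56 (SE 0.081, limma adjusted p = 0.0104), and in CypD KO against WT it was 0.08 (limma adjusted p = 0.539).

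*Vhl* (ENSMUSG00000033933; chromosome 6, 113600920 to 113608599), whose protein is the substrate receptor of the ligase that recognizes hydroxylated HIF alpha, was at 12.7 and 12.5 TPM in WT, 21.1 and 25.2 TPM in CypD KO, 20.9 and 21.9 TPM in Control, and 17.1 and 16.9 TPM in the CypD OE-labelled libraries. WT was lowest, CypD KO and Control overlapped at the top, and the CypD OE-labelled libraries lay between without touching either. *Vhl* rose to 1.84 times WT in CypD KO (log2 fold change 0.83, SE 0.090, limma adjusted p = 3.86e-04) and to 1.70 times WT in Control (0.72, SE 0.090, limma adjusted p = 0.00222), and both calls held under all 15 alternatives. In CypD OE-labelled cells it fell to 79.4% of Control (-0.32, SE 0.090, limma adjusted p = 0.0315) and was still 1.35 times WT (0.40, SE 0.090, limma adjusted p = 0.0170). These smaller differences did not hold with 1 of their libraries left out. The adjusted p against Control was 0.0781 and 0.131 without Control replicate 1 and 2, and 0.0980 and 0.117 without CypD OE replicate 1 and 2 (limma). Against WT it was 0.0628 and 0.0727 without WT replicate 1 and 2, and 0.0782 and 0.0688 without CypD OE replicate 1 and 2 (limma).

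*Egln1* (ENSMUSG00000031987; chromosome 8, 125635308 to 125676865) encodes PHD2, the main HIF1α prolyl hydroxylase of most cells. It was at 22.1 and 21.9 TPM in WT, 70.9 and 68.9 TPM in CypD KO, 102 and 99.3 TPM in Control, and 21.2 and 22.4 TPM in the CypD OE-labelled libraries. Replicates lay close together, and 3 levels were apparent, with Control above CypD KO and CypD KO above the other 2 groups, which overlapped. *Egln1* rose to 3.18 times WT in CypD KO (log2 fold change 1.62, SE 0.048, limma adjusted p = 1.87e-06) and to 4.58 times WT in Control (2.15, SE 0.048, limma adjusted p = 2.31e-06). In the CypD OE-labelled libraries it fell to 21.6% of Control (-2.16, SE 0.048, limma adjusted p = 9.15e-07), and against WT the difference was -0.01 (95% interval -0.13 to 0.10, limma adjusted p = 0.881). CypD KO was below Control by a log2 fold change of -0.52 (SE 0.048, limma adjusted p = 2.12e-04). Ordered by fold change, *Egln1* was at rank 39 from the top of 13526 genes in Control against WT, at rank 363 in CypD KO against WT, and at rank 66 from the bottom in CypD OE-labelled against Control.

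*Egln3* (ENSMUSG00000035105; chromosome 12, 54225767 to 54250673) encodes PHD3, the isoform best known for its induction by HIF. Its levels were 1.35 and 1.14 TPM in WT, 8.52 and 7.35 TPM in CypD KO, 8.06 and 7.06 TPM in Control, and 1.22 and 0.70 TPM in the CypD OE-labelled libraries. CypD KO and Control overlapped, as did WT and the CypD OE-labelled libraries, with a wide gap between the pairs. *Egln3* rose to 6.37 times WT in CypD KO (log2 fold change 1.99, SE 0.17, limma adjusted p = 1.29e-04) and to 6.07 times WT in Control (1.93, SE 0.17, limma adjusted p = 5.30e-04). It fell to 12.7% of Control in the CypD OE-labelled libraries (-2.14, SE 0.17, limma adjusted p = 1.67e-04), which differed from WT by -0.21 (95% interval -0.61 to 0.20, limma adjusted p = 0.411). Between CypD KO and Control the difference was 0.06 (-0.34 to 0.46, limma adjusted p = 0.803). The low values rest on approximately 21.3 to 37.3 fragments and the high ones on 194 to 246.

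*Egln2* (ENSMUSG00000058709; chromosome 7, 26853588 to 26866408), which encodes PHD1, went the other way. It was at 29.1 and 26.0 TPM in WT, 24.0 and 22.8 TPM in CypD KO, 22.4 and 22.5 TPM in Control, and 31.3 and 28.1 TPM in the CypD OE-labelled libraries. Both Control libraries were below CypD KO, and both CypD KO libraries were below WT, which overlapped with the CypD OE-labelled libraries. *Egln2* was 1.32 times Control in the CypD OE-labelled libraries (log2 fold change 0.39, SE 0.078, limma adjusted p = 0.00865), a call lost without CypD OE replicate 1 (0.31, limma adjusted p = 0.0522). Its difference in CypD KO against WT, -0.22, was just outside the threshold (SE 0.078, limma adjusted p = 0.0525). It stayed outside in 11 of 15 alternatives, over which the difference ranged from -0.33 to -0.15. After rescaling it was inside (-0.33, limma adjusted p = 0.00966). In Control against WT *Egln2* fell to 81.5% (-0.28, SE 0.078, limma adjusted p = 0.0422). That call was lost in 8 of 15 alternatives, with a limma adjusted p of 0.176 without WT replicate 1, 0.135 and 0.128 without Control replicate 1 and 2, and 0.0660 and 0.0658 without CypD KO replicate 1 and 2.

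**Figure D2:**
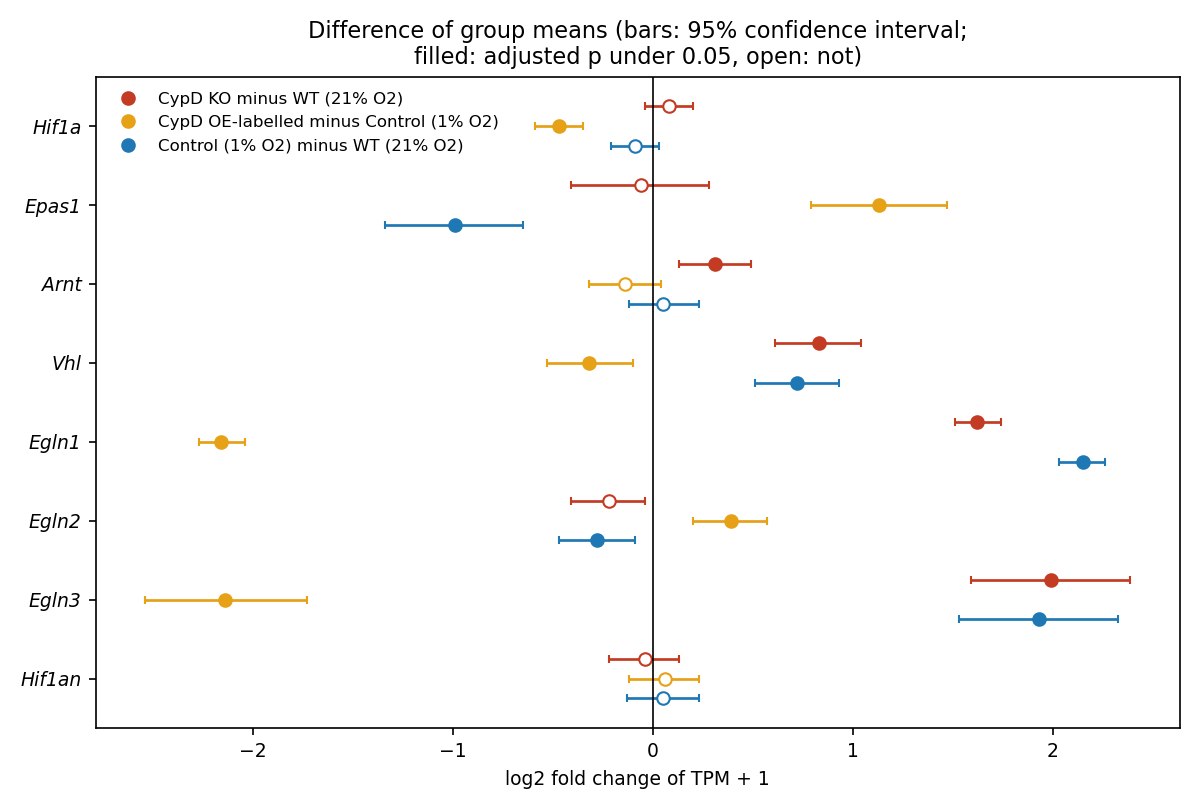
Log2 fold change of TPM + 1 (horizontal axis) for the 8 genes tested in 3 comparisons, with the 95% confidence interval from limma as bars and filled points for an adjusted p under 0.05. *Egln1* and *Egln3* lie between 1.62 and 2.16 in size in each comparison, *Epas1* is moved in the 2 comparisons that involve Control and not in CypD KO against WT, and *Hif1an* is close to 0 in all 3.

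The bases before the transcription start of the prolyl hydroxylase genes and *Vhl* are shown because *Egln1* and *Egln3* had the largest differences and *Egln2* went the other way, and the core of a hypoxia response element, ACGTG or GCGTG, can be read in them. The windows were taken from RefSeq for 9 of the 10 genes (all but *Epas1*), in build GRCm38.p6, whose positions differ from those in GRCm39 given above. Each runs 5′ to 3′ over the 250 bases upstream of the start on the strand of the gene, and capitals mark ACGTG or GCGTG on either strand.
Egln1 (chr8:124949255-124949504, minus strand): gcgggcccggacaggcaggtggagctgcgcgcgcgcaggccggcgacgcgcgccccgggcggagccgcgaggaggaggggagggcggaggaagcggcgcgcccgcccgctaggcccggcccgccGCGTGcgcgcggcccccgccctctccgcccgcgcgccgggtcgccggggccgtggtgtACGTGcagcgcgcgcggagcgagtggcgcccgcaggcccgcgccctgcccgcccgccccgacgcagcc
Egln3 (chr12:54203875-54204124, minus strand): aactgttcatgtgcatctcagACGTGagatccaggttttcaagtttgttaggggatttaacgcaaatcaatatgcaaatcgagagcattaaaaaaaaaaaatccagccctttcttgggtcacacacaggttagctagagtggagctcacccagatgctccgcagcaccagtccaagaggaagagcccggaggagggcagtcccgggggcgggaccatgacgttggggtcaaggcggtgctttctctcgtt
Egln2 (chr7:27166803-27167052, minus strand): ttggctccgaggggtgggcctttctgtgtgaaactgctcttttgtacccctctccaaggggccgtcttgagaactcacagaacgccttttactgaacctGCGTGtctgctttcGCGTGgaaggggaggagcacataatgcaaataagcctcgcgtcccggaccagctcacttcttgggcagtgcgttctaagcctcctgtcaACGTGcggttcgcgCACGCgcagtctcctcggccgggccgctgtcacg
Vhl (chr6:113623744-113623993, plus strand): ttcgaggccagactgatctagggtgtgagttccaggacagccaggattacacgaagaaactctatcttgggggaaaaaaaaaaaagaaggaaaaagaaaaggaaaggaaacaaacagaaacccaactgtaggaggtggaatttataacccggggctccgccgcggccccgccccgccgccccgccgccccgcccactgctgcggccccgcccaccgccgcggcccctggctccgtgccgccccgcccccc

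*Egln1* held 1 ACGTG, at -68 to -64 from the start, and 1 GCGTG at -126 to -122. *Egln3* held 1 ACGTG at -229 to -225. *Egln2*, which moved the other way, held 4 matches in the window printed, among them ACGTG at -48 to -44, and 1 GCGTG upstream of a second start, and *Vhl*, *Hif1an* and *Arnt2* held 0. In *Hif1a* there were 3 matches to ACGTG, 2 of them on opposite strands of a CACGTG, the palindrome also bound by other factors of the same class. *Arnt* held 1 GCGTG and *Hif3a* 2. Of 32851 such windows of all genes, 16.6% hold ACGTG and 38.6% hold ACGTG or GCGTG, so a match is common, and matches were present both in genes that rose and in genes that did not.

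Since the 3 prolyl hydroxylases share their substrates, their levels were also expressed as shares of their summed TPM, a quantity that no rescaling of a library changes. In WT, *Egln2* made up 55.4% and 53.0% of the sum and *Egln1* 42.1% and 44.7%. *Egln1* was the larger part in CypD KO, at 68.5% and 69.6%, and in Control, at 77.1% in both libraries. In the CypD OE-labelled libraries *Egln1* made up 39.5% and 43.8% and *Egln2* 58.2% and 54.9%, which overlapped with WT for both genes. *Egln3* was 2.57% and 2.32% in WT, 8.24% and 7.42% in CypD KO, 6.07% and 5.48% in Control, and 2.27% and 1.37% in the CypD OE-labelled libraries. The summed level was highest in Control at 131 ± 2.74 TPM (SD, n = 2), followed by CypD KO at 101 ± 3.05, the CypD OE-labelled libraries at 52.5 ± 1.74 and WT at 50.8 ± 2.38. The order of *Egln1* and *Egln2* was thus reversed between the groups, with *Egln1* at 2.99 ± 0.0496 times *Egln2* in CypD KO and 4.49 ± 0.108 times in Control, against 0.801 ± 0.0585 in WT (SD, n = 2). No test was run on these shares of 2 against 2 libraries.

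**Figure D3:**
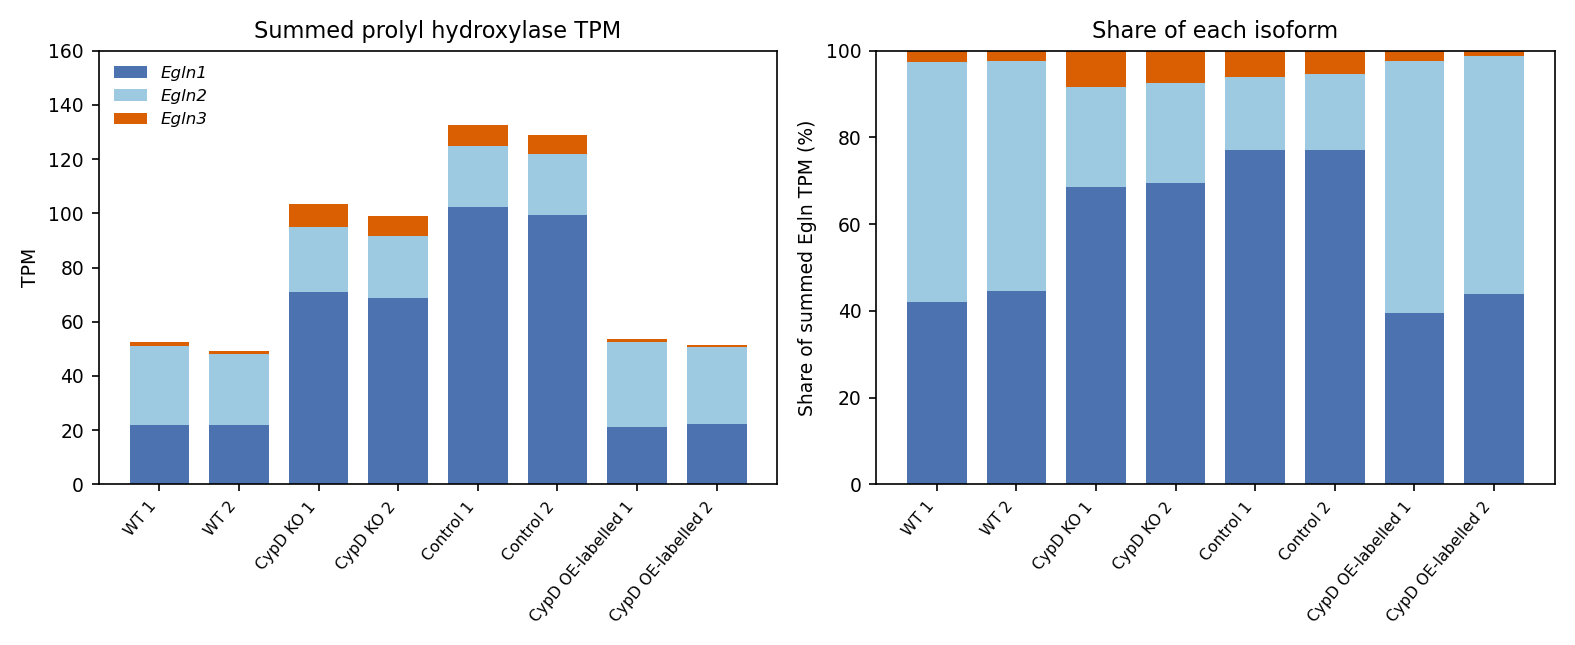
Summed TPM of the prolyl hydroxylase genes in each library (left, vertical axis in TPM) and the share of each gene in that sum (right, in percent), with *Egln1* dark blue, *Egln2* light blue and *Egln3* orange. The sum is 99.1 to 133 TPM in the CypD KO and Control libraries and 49.1 to 53.7 TPM in the others, and *Egln1* is the largest share in the former only.

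*Hif1an* (ENSMUSG00000036450; chromosome 19, 44551286 to 44568723), which encodes FIH, was at 15.3 and 14.5 TPM in WT, 14.4 and 14.5 TPM in CypD KO, 14.8 and 16.2 TPM in Control, and 16.6 and 15.8 TPM in the CypD OE-labelled libraries. The CypD KO libraries lay just below WT and the CypD OE-labelled libraries overlapped with Control, and *Hif1an* was not called in any of the 5 comparisons or their alternatives. The 95% intervals of its log2 fold change were -0.22 to 0.13 in CypD KO against WT, -0.12 to 0.23 in CypD OE-labelled against Control and -0.13 to 0.23 in Control against WT.

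CypD KO cells at 21% O2 and Control cells at 1% O2 were also set against each other, as the 2 groups with high *Egln1* and *Egln3*. Of the 8 genes tested, 3 were higher in CypD KO (*Hif1a*, *Epas1* and *Arnt*) and 1 was lower (*Egln1*), where 44.0% of all genes differed, 27.4% upward and 16.5% downward. After rescaling, 2938 of all genes were higher and 3042 lower in place of 3709 and 2236, and 1 member was called in each direction. The calls of *Hif1a* (log2 fold change 0.17, limma adjusted p = 0.0349) and *Arnt* (0.26, limma adjusted p = 0.0313) were lost in 10 and 8 of 15 alternatives, among them the omission of any 1 of the CypD KO or Control libraries, with limma adjusted p-values of 0.0549 to 0.166. *Hif1a* was also lost without either CypD OE-labelled library (limma adjusted p = 0.0569). Those of *Epas1* and *Egln1* held in all. Between CypD OE-labelled and WT cells, 1 gene was higher (*Vhl*) and 1 lower (*Hif1a*), where 27.7% of all genes differed, 14.0% upward and 13.7% downward. These 2 comparisons share their libraries with those above.

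The genes that work with the HIF system were described by 4 lists. The lists were compiled from general knowledge with earlier results of these data known. The shares called therefore describe the lists and are no independent support. Of 16 known HIF target genes, 14 rose and 1 fell in CypD KO against WT (median log2 fold change 1.33, against 0.09 over all genes), 15 fell and 1 rose in CypD OE-labelled against Control (median -2.06, against 0.00), and 15 rose in Control against WT (median 1.86, against 0.01). The share of targets called was 93.8%, 100% and 93.8%, where 48.4%, 37.4% and 24.2% of all genes were called in these comparisons, and these counts were the same after rescaling. The largest differences in CypD KO were those of *Bnip3* (4.22, limma adjusted p = 1.17e-06), *Adm* (3.25, limma adjusted p = 2.36e-04) and *Pdk1* (2.92, limma adjusted p = 1.19e-04), which encode a mitochondrial BCL2 family protein, a vasodilator peptide and an inhibitory kinase of pyruvate dehydrogenase. The same 3 genes led the list in CypD OE-labelled against Control, with *Bnip3* at -4.47 (limma adjusted p = 1.21e-06), *Pdk1* at -4.26 (limma adjusted p = 4.17e-05) and *Adm* at -3.89 (limma adjusted p = 1.85e-04). *Ndrg1*, the target that fell in CypD KO (-0.22, limma adjusted p = 0.0112), rose in Control (0.51, limma adjusted p = 9.43e-04), and *Car12*, a carbonic anhydrase gene, was the one that rose in CypD OE-labelled cells (0.66, limma adjusted p = 0.0249). Both were singled out for naming after their values were seen.

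Of 24 genes for partners of the VHL ligase and the hydroxylases, 23 were tested, and in CypD KO against WT 6 rose and 6 fell (median 0.03, against 0.09 over all genes). That is 52.2% of the list, near the 48.4% of all genes, and after rescaling 4 rose and 9 fell. Among them *Elob*, for elongin B of the VHL complex, rose from 245 ± 15.7 to 349 ± 2.88 TPM (SD, n = 2; log2 fold change 0.51, limma adjusted p = 3.46e-04), and *Wdr83*, whose protein is a scaffold that binds PHD3, rose by 0.48 (limma adjusted p = 0.00340). In CypD OE-labelled against Control, 4 of these genes rose and 5 fell (median -0.02), or 39.1% against 37.4% of all genes, and *Hsp90aa1*, which encodes a chaperone of HIF1α, fell most, from 3473 ± 122 to 2058 ± 78.9 TPM (SD, n = 2; -0.75, limma adjusted p = 1.57e-05). *Usp20*, for a deubiquitinase that opposes VHL on HIF1α, rose by 0.65 (limma adjusted p = 0.00397) and *Limd1*, for a scaffold of PHD and VHL, by 0.48 (limma adjusted p = 0.00145). In Control against WT, 4 rose and 2 fell (median -0.02), or 26.1% against 24.2% of all genes, and after rescaling 3 rose and 5 fell.

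Of 14 genes for HIF coactivators and inhibitors, 13 were tested. In CypD KO against WT 2 rose and 5 fell (median -0.17, against 0.09 over all genes), or 53.8% of the list against 48.4% of all genes. After rescaling 1 rose and 9 fell, and the 7 calls became 3 and 4 without WT replicate 1 and 2, and 4 and 2 without CypD KO replicate 1 and 2. The largest difference was that of *Zmiz1*, a transcriptional coactivator gene, which was 2.39 times WT (log2 fold change 1.17, SE 0.081, limma adjusted p = 5.51e-05). In CypD OE-labelled against Control 2 rose and 3 fell (median -0.06), or 38.5% against 37.4% of all genes, with 3 calls in all without either Control library or without CypD OE replicate 2. *Cited1*, for a CBP/p300-binding protein known from melanocytes, fell to 30.4% of Control (-1.60, SE 0.15, limma adjusted p = 3.72e-04), *Cited2*, whose protein competes with HIF1α for the same coactivators, fell by 0.35 on the log2 scale (limma adjusted p = 0.00125), and *Cdk8*, a Mediator kinase gene, rose by 0.42 (limma adjusted p = 9.31e-04). Of 17 other genes of the bHLH-PAS class, to which the HIF subunits belong, or their coactivators, 11 were tested. In CypD KO 3 rose and 1 fell (median 0.20), or 36.4% against 48.4% of all genes, which became 1 and 3 after rescaling, with 1 to 2 calls without WT replicate 1, CypD KO replicate 1 or CypD KO replicate 2, and *Arntl*, the clock gene also called *Bmal1*, rose by 0.62 (limma adjusted p = 0.00209). In CypD OE-labelled cells 3 rose (median -0.03), or 27.3% against 37.4% of all genes, among them *Ahr*, for the aryl hydrocarbon receptor, which also pairs with ARNT (0.71, limma adjusted p = 0.00300), and *Clock* (0.32, limma adjusted p = 0.00672). Control against WT gave 3 coactivator genes higher and 1 lower (30.8% of the list), and of the bHLH-PAS genes 0 higher and 1 lower (9.09%), where 24.2% of all genes were called, the last lost without any 1 of the WT or Control libraries. The coactivator and bHLH-PAS lists have 3 genes in common.

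**Figure D4:**
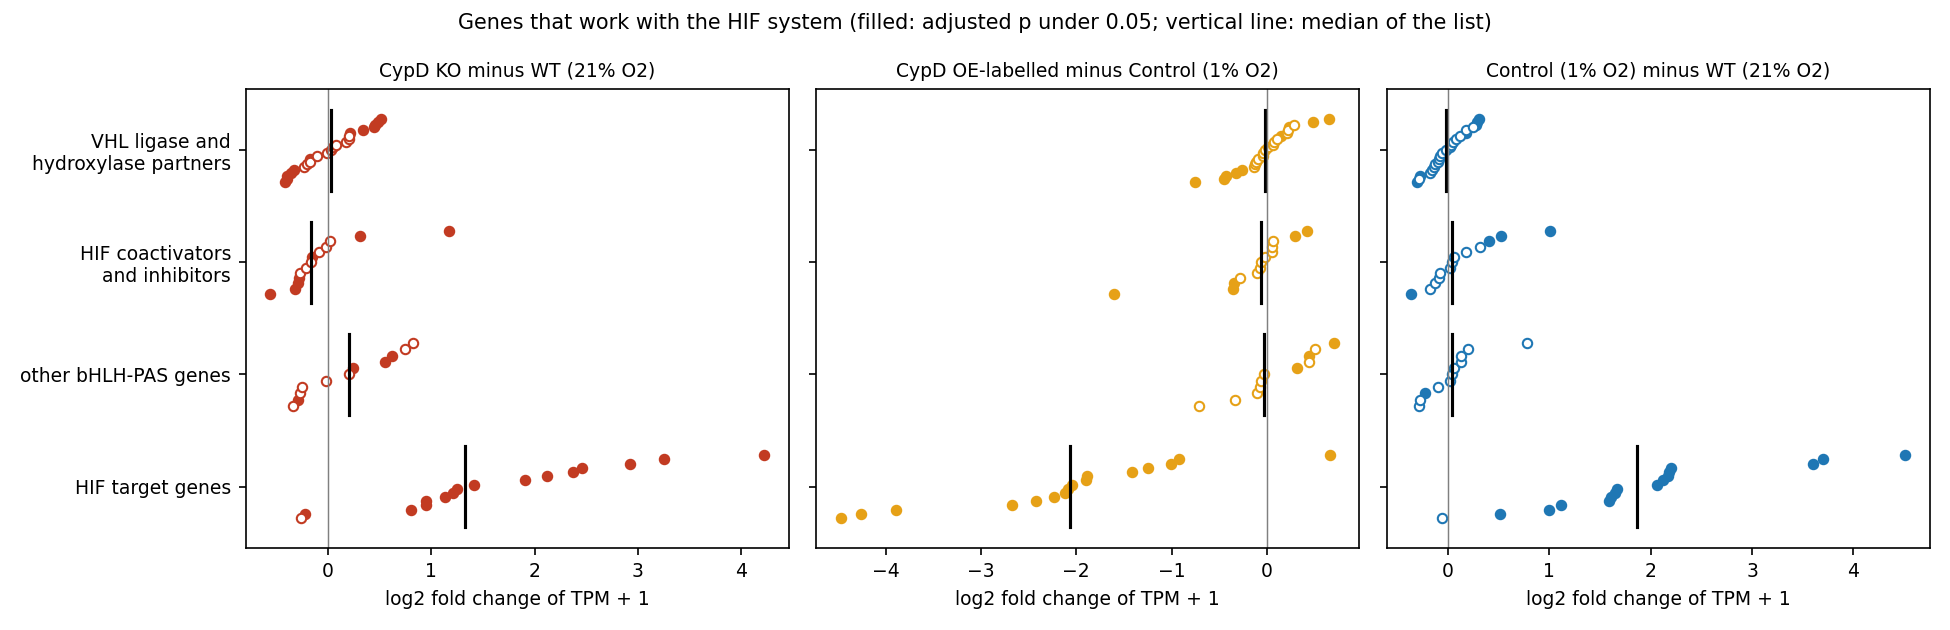
Log2 fold change of TPM + 1 (horizontal axis) of each gene tested in 4 lists (rows) and 3 comparisons (panels). Points are genes, filled for an adjusted p under 0.05, and the vertical line is the list's median, which for HIF target genes is 1.33, -2.06 and 1.86 and for the other lists between -0.17 and 0.20.

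For the 3 genes whose group means spanned at least 1 on the log2 scale, the most similar patterns over the 8 libraries were listed among the other 13525 genes, by Pearson's r, as a description in which the libraries share 4 conditions. *Egln1* was most like *Hk2*, for hexokinase 2 (r = 0.998), *Loxl2*, for a lysyl oxidase (r = 0.997), and *Fam162a*, for a mitochondrial protein induced by HIF (r = 0.997). *Egln3* was most like *Rnf19a* (r = 0.996), *Npepps* (r = 0.994) and *Tbc1d32* (r = 0.994), whose own levels moved less, *Npepps* from 51.7 to 65.9 TPM. After rescaling, only 1 of these 3 remained among the most similar. The pattern of *Epas1* was most like those of *Gm25291*, a small nucleolar RNA gene (r = 0.985), the noncoding *Snhg1* (r = 0.981) and *Psph*, for the last enzyme of serine synthesis (r = 0.978). *Gm25291* was listed at 0 in both Control libraries. Its replicates lay far apart, at 24.0 and 10.8 TPM in WT and 19.6 and 10.3 TPM in CypD KO. How far its r rests on the 0 values was not tested.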

How the data were processed

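RNA was sequenced in 8 libraries, 2 per group, grouped by their labels. Per the labels and the methods of the study, the authors made ribosome-depleted total RNA libraries (KAPA RNA HyperPrep with RiboErase), processed the reads with cutadapt 3.4, STAR 2.7.8a against GRCm39 and RSEM 1.3.1, and deposited TPM per gene. Annotation release and strand setting are not given in the sources used here, and the labels and the methods name different RNA isolation kits. A TPM value is relative to the rest of its library and is no count, for which reason the DESeq2 1.26.0 test of the study was not run.

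The 13526 genes that reached 1 TPM in 2 or more libraries entered a limma 3.58.1 fit (R 4.3.3) of log2(TPM + 1), with a mean for each of 4 groups over all 8 libraries and eBayes with trend. Tests were two-sided, and p-values were adjusted by Benjamini-Hochberg over all genes tested. Depth was estimated from the low values of single-transcript genes, 82.9% to 85.5% of which came out whole within 0.15 fragments, and fragments per gene used the canonical transcript and are approximate. These counts cover counting error only. Whether replicates were separate cultures is not given in the sources used here, so p-values measure the spread between these libraries, which may be technical. Coordinates are those of GENCODE (GRCm39), matched by Ensembl identifier for 98.8% of 55414 genes, and promoter windows those of RefSeq (GRCm38.p6).

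The genes and lists were chosen with earlier results of these data known. Genes named beside the 10 are *Ppif*, up to 3 called genes with the largest difference per list in CypD KO against WT and CypD OE against Control, and the 3 most similar genes to a member whose group means span at least 1. Cell type markers and some of the genes that overlap a member, *Gm15283* and *Gm42672*, are named as checks. Other members have overlapping genes too. Among them, the protein-coding *Cyp2t4* lies opposite *Egln2*, at 0 to 0.18 TPM. *Ndrg1* and *Car12* were added after their values were seen. Alternatives were a pseudocount of 0.1, no minimum or 5 TPM, median-of-ratios rescaling, the 4 libraries of a comparison alone, a replicate block, eBayes without trend, and each library left out. Their use on the lists and similar genes was added after seeing the data.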

Additional observations from a re-analysis of the deposited data

How the results depend on the processing

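The calls of *Egln1*, *Egln3* and *Vhl* in CypD KO against WT, of *Egln1*, *Egln3*, *Hif1a* and *Epas1* in CypD OE-labelled against Control, and of *Egln1*, *Egln3*, *Vhl* and *Epas1* in Control against WT held in all 15 alternatives. Of 600 values of single members under an alternative, 544 kept their direction and side of the threshold, 39 lost the call, 4 gained it and 13 changed sign, the last among differences that were not called. The changed signs were Hif1a -0.03 in CypD KO against WT, and Egln2 -0.03 and Egln3 -0.02 in CypD KO against Control, after rescaling. With 1 library left out, the ranges that crossed 0 were -0.19 to 0.07 for Epas1 in CypD KO against WT, -0.01 to 0.12 for Hif1an in CypD OE-labelled against Control, -0.01 to 0.12 for Arnt and -0.01 to 0.11 for Hif1an in Control against WT, -0.17 to 0.00 for Arnt and -0.05 to 0.03 for Egln1 in CypD OE-labelled against WT, and -0.02 to 0.23 for Vhl and -0.03 to 0.16 for Egln3 in CypD KO against Control.

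The number of members called in CypD KO against Control was 4 and became 2 with no minimum on TPM, with rescaling, with the replicate block, with eBayes without trend, and 2 to 4 with 1 library left out. In CypD OE-labelled against WT it was 1 to 2 with 1 library left out. For the other comparisons it stayed within 1.5 times. The number of all genes called in Control against WT fell from 3269 to 1981 with the 4 libraries of the comparison alone, and to 2009 to 2109 without 1 of these libraries. In CypD OE-labelled against WT it fell from 3744 to 2423 without WT replicate 1, and to 2359 and 2295 without CypD OE replicate 1 and 2. The cause of these falls was not tested.

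Deviations of same-numbered libraries from their group means correlated at -0.030 to 0.108 across genes over the pairs of groups (0.108 for WT and CypD KO, -0.002 for Control and CypD OE), so the numbers were not taken as pairs. With the replicate block the number of members called was 5 in CypD KO against WT, where *Egln2* was added, and 2 in CypD KO against Control.

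Among the lists, the coactivator genes called in CypD KO against WT went from 7 to 4 with no minimum on TPM and to 2 to 6 with 1 library left out, and those in CypD OE-labelled against Control from 5 to between 3 and 6 with 1 library left out. The other bHLH-PAS genes called in CypD KO against WT went from 4 to 2 with the 4 libraries of the comparison alone and to 1 to 5 with 1 library left out. In Control against WT the 1 call was 0 with no minimum on TPM, with the replicate block, with eBayes without trend, and 0 to 1 with 1 library left out. The calls of *Siah2*, *Cited1*, *Kat5*, *Per3* and *Ncoa1* in CypD KO against WT were lost in 5, 5, 3, 11 and 2 alternatives, and that of *Per1* in CypD OE-labelled against Control in 4. *Ppif* in CypD OE-labelled against Control passed the threshold without CypD KO replicate 1 or 2 (limma adjusted p = 0.0325 and 0.0330).

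Depth limits *Hif3a* and *Arnt2*, and the low values of *Egln3* rest on few fragments.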

Other observations

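Ratios within a library, which no rescaling changes, were computed between subunits and enzymes. *Hif1a* was 23.5 and 29.1 times *Epas1* in WT, 26.8 and 31.6 times in CypD KO, 68.8 and 52.0 times in Control, and 15.9 times in both CypD OE-labelled libraries. Control was the group with the lowest share of *Epas1* in the 2 alpha subunit genes, at 1.66% ± 0.321 (SD, n = 2), and the CypD OE-labelled libraries the group with the highest, at 5.91% ± 0.0172, against 3.70% ± 0.534 in WT. *Hif1a* was 3.71 and 4.44 times *Arnt* in WT, 3.44 and 3.45 times in CypD KO, 3.70 and 3.65 times in Control, and 3.10 and 2.76 times in the CypD OE-labelled libraries, the lowest of the 4 groups. No test was run on these ratios of 2 libraries a group.

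The summed RNA level of the prolyl hydroxylase genes per unit of *Hif1a* RNA was 0.351 ± 0.0387 (SD, n = 2) in WT and 0.660 ± 0.00350 in CypD KO. It was 0.958 ± 0.00223 in Control and 0.532 ± 0.0199 in the CypD OE-labelled libraries. This is a ratio of RNA to RNA, and the proteins were not measured. The CypD OE-labelled libraries, whose summed hydroxylase level overlapped with WT, were above WT in this ratio, with *Hif1a* itself lower.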
